A study of Homo sapiens with 6 samples.

Results

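The SLC12 family of cation-chloride cotransporters and the kinases that control it were examined in MDA-MB-468, an established basal-like, triple-negative breast cancer line. The 9 genes described are 6 transporters (SLC12A2, SLC12A4, SLC12A5, SLC12A7, SLC12A8 and SLC12A9) and 3 kinases (WNK1, STK39 and OXSR1), out of 31122 genes in the count table. They were chosen by the SLC12A7 counts of this same comparison, in which that gene was seen to be lost, and by family, to ask whether relatives take its place. RNA from 6 cultures was sequenced after poly(A) selection. Parental cells were grown in 3 wells of a plate (parental-labelled 1 to 3, titled W1 to W3), and 3 populations had been edited by CRISPR-Cas9 with a single guide RNA for the orphan receptor gene GPR52 (KO-labelled 1 to 3, titled 11, 12 and OG). The labels do not give the origin of each edited population (clone, pool or subculture), and no non-targeting control was analysed here. Libraries of a group may not be independent, so the spread behind the p-values could be technical. In bulk RNA, fewer cells of a type and less RNA per cell cannot be told apart.

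Cation-chloride cotransporters move chloride across the plasma membrane together with sodium or potassium, without net charge. SLC12A2 (NKCC1) brings in sodium, potassium and chloride, whereas the potassium-chloride cotransporters SLC12A4 (KCC1), SLC12A5 (KCC2) and SLC12A7 (KCC4) let potassium and chloride out, so that their balance sets intracellular chloride and cell volume. WNK kinases respond to chloride and osmotic stress and activate STK39 (SPAK) and OXSR1 (OSR1), which phosphorylate both arms, activating the sodium-dependent carriers and inhibiting the potassium-chloride ones. SLC12A8 and SLC12A9 are more distant family members.

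GPR52, the edited gene, was read as transcript level only, which does not show whether the gene was edited. Its counts were 9, 1 and 0 in parental-labelled and 645, 694 and 724 in KO-labelled libraries, which goes against a loss of the transcript, so directions below refer to the labels only. Total counts were 25637794 to 31692454 per library. Markers of basal-like epithelium (8 genes, EGFR and KRT5 among them) summed to 9846 to 9869 CPM (counts scaled to library size) in parental-labelled and 8698 to 13200 in KO-labelled libraries. EGFR alone had a parental-labelled mean of 5114 CPM and was at 4560, 4927 and 8307 in KO-labelled 1 to 3. EPCAM and KRT5 were called higher (log2 fold changes 0.46 and 0.51, edgeR adjusted p under 0.05). CDH1 and KRT18 were called lower (-0.42 and -0.46), and EGFR, KRT6A, KRT8 and KRT17 were not called. Of the other markers in the count table, fibroblast COL1A1 was higher in the KO-labelled libraries (7.31 against 25.5 CPM), while COL1A2 and LUM had group means of at most 0.0217 CPM. Of the luminal receptors, ESR1 was called lower (9.38 ± 0.728 against 2.79 ± 1.09 CPM, edgeR adjusted p 0.00102) and ERBB2 was not called (123.5 against 113.6 CPM). The FPKM values of ESR1 overlapped between the groups. Leukocyte PTPRC and CD3E had group means of at most 0.2535 CPM, and CD14 went from 30.7 to 3.45 CPM. Endothelial VWF and CDH5 together were at 0.750 to 1.75 CPM. The part of these markers in the results below was not tested. For several members KO-labelled 3 lay away from KO-labelled 1 and 2, and values without it are given beside them.

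SLC12A7 was the member whose loss chose the set, and SLC12A2 was the other member with a called change, described below. The 250 bases upstream of their annotated starts are shown because they stand before the transcript that was lost and the only other one called with all libraries. Both are on chromosome 5, far apart, and the sequences are from RefSeq on GRCh38.p14, a later build than the authors' hg19, written 5′ to 3′ on the gene's strand. Capitals mark GC boxes, the motif GGGCGG on either strand, with overlapping matches counted.
SLC12A7 (chr5:1112064-1112313, minus strand): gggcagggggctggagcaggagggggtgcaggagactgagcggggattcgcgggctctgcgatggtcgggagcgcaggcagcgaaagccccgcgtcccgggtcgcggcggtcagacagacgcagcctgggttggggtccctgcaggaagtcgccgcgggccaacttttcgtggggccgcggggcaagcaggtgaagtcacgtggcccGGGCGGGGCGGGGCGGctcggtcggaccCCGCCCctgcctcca
SLC12A2 (chr5:128083516-128083765, plus strand): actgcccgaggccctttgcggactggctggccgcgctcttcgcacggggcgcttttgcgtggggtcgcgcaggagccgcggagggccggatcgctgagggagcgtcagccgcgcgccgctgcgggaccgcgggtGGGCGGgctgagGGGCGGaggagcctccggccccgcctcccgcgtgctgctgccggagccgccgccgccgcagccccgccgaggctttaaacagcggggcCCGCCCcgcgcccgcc
The SLC12A7 stretch held 28 CG dinucleotides and 4 GC boxes, and the SLC12A2 stretch 40 CG dinucleotides and 3 GC boxes. The median over 35116 windows of that length in the table was 11 CG dinucleotides, and 42.6% of windows held at least 1 GC box. Windows were found for 9 of the 9 members, 13 in all, of which 9 held a GC box. A match describes the letters only, and methylation and factor binding were not measured here.

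SLC12A7, the potassium-chloride cotransporter KCC4, was almost absent from the KO-labelled libraries. It had 351, 312 and 461 counts in parental-labelled 1 to 3 and 1, 0 and 1 in KO-labelled 1 to 3. The parental-labelled level was 11.6, 12.4 and 14.8 CPM, so the groups were far apart with no intermediate library. The ratio was 538-fold lower (95% exact counting interval 148 to 4445, which covers counting error only), and it rests on 2 KO-labelled counts. Per length, the authors' FPKM values (fragment counts scaled by transcript length and library size) were 1.88, 2.32 and 2.98 against 0.000513, 0 and 0.00582. This loss is what led to the choice of the 9 genes, so it is given as a description with no test. Leaving out any library moved the fitted log2 fold change of -8.82 between -9.19 and -8.30.

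**Figure D1:**
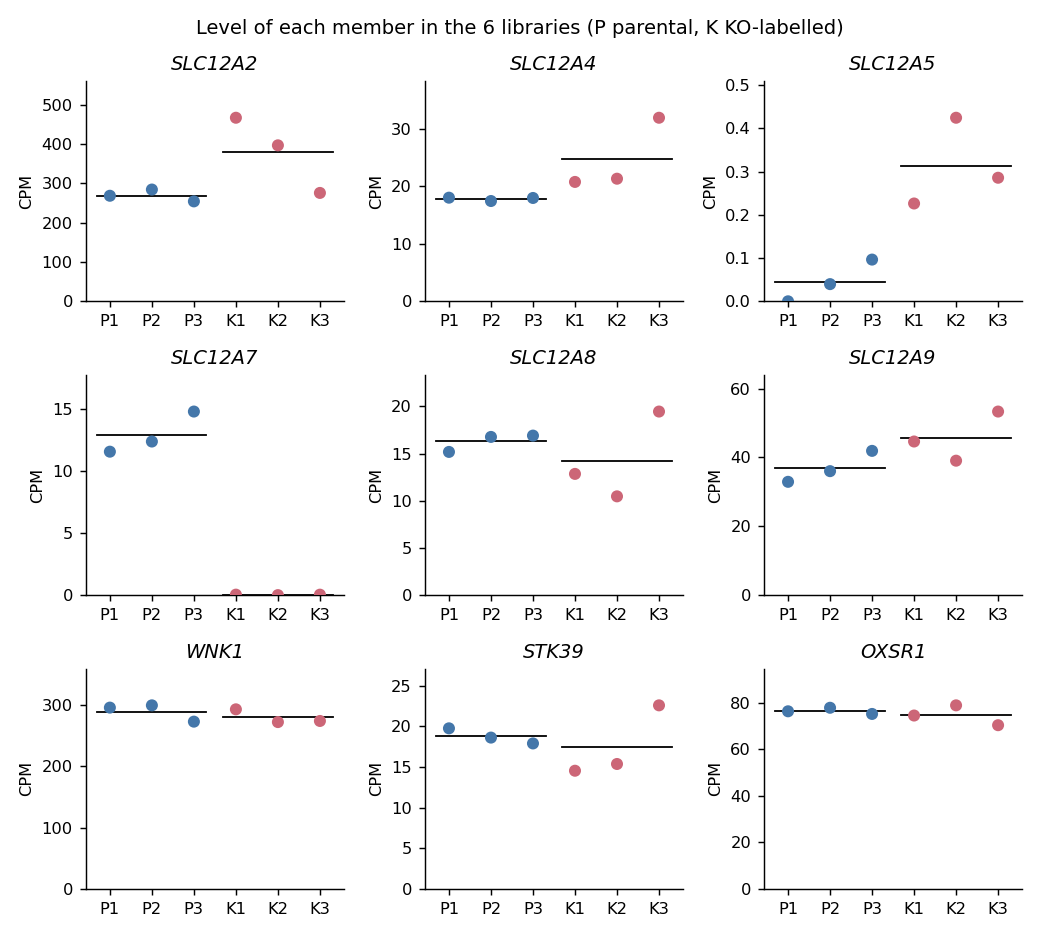
Level of each of the 9 genes in CPM (y axes from 0, scaled per panel) in parental-labelled (P1 to P3, blue) and KO-labelled (K1 to K3, red) libraries, with group means as lines. SLC12A7 falls from 11.6 to 14.8 CPM to at most 0.0377 CPM, and SLC12A2 is high in K1 and K2 but at 275.8 CPM in K3.

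The other members were then described in the fit over all genes, where a call means an adjusted p under 0.05 (edgeR quasi-likelihood test, Benjamini-Hochberg over 17420 genes). Since the 9 were chosen with this comparison known, their p-values are not given and the calls are read only as a count. Apart from SLC12A7, whose loss chose the set, 7 members had enough counts to be tested, of which 1, SLC12A2, was called higher and 6 were not called. Among all tested genes 40.8% were called, 21.0% higher and 19.8% lower. SLC12A5 had too few counts to be tested. The median log2 fold change of the 7 was -0.04, against 0.01 over all tested genes.

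SLC12A2, the sodium-potassium-chloride cotransporter NKCC1, rose in some edited populations more than in others. Its level was 268.6, 284 and 254 CPM in parental-labelled and 467, 397 and 276 CPM in KO-labelled libraries. KO-labelled 1 and 2 lay at 1.74 and 1.47 times the parental-labelled mean and KO-labelled 3 at 1.02 times, inside the parental-labelled range. The group means were 269 ± 15.1 and 380.0 ± 96.8 CPM (± is the SD over 3 libraries here and below), and the log2 fold change was 0.50 (SE 0.17). In FPKM the values were 45.3, 46.7 and 46.2 against 85.3, 74.4 and 50.5, so on that scale KO-labelled 3 was just above the parental-labelled libraries and the groups did not overlap. The call was lost when any of parental-labelled 1, 2 or 3 or KO-labelled 1 or 2 was left out, at 0.49, 0.53, 0.45, 0.32 and 0.46, and was kept without KO-labelled 3, at 0.68.

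Among the potassium-chloride cotransporters, SLC12A4 (KCC1), which is widely expressed and acts in volume decrease, had 18.0, 17.4 and 18.0 CPM in the parental-labelled libraries. In the KO-labelled libraries it had 20.8, 21.3 and 31.9 CPM. The groups did not overlap in CPM, and KO-labelled 3 was far above the other two. Of the 7 tested members other than SLC12A7, 1 (SLC12A4) was higher without overlap and 0 were lower, where 54.4% of all tested genes did not overlap, 27.4% higher and 27.1% lower. The log2 fold change was 0.47 (SE 0.17) and was not called. It was called higher without KO-labelled 1, 2 or 3, at 0.58, 0.56 and 0.24. Without parental-labelled 1, 2 or 3 it was not called, at 0.47, 0.45 and 0.47, nor was it on either log2 FPKM scale. Scaling by upper quartile or by library totals only gave a call, both at 0.51, as did the DESeq2 test, at 0.46. With DESeq2 size factors, no filter on low counts or a stricter filter it was not called, at 0.47, 0.45 and 0.49. In FPKM, 5.53, 5.01 and 6.05 against 5.49, 7.39 and 8.78, the groups overlapped. LCAT, annotated as overlapping SLC12A4 on the same strand, was at 2.02 ± 0.190 against 1.80 CPM.

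SLC12A5 (KCC2), the neuronal member, was near the limit of detection, with 0, 1 and 3 counts in parental-labelled and 6, 12 and 8 in KO-labelled libraries. The ratio was 6.79-fold higher (95% exact counting interval 2.36 to 26.8), which covers counting error only. FPKM did not separate the groups, with 0, 0.00920 and 0.342 against 0.441, 0.408 and 0.327. Parental-labelled 3 was among the lower libraries by count and within the KO-labelled range by FPKM.

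Per length, SLC12A2 stood above SLC12A4 by a factor that differed among the edited populations. The ratio of their FPKM was 8.18, 9.32 and 7.64 in the parental-labelled libraries. In KO-labelled 1 and 2 it was 15.6 and 10.1, above all of these, and in KO-labelled 3 it was 5.75, below all of them.

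**Figure D2:**
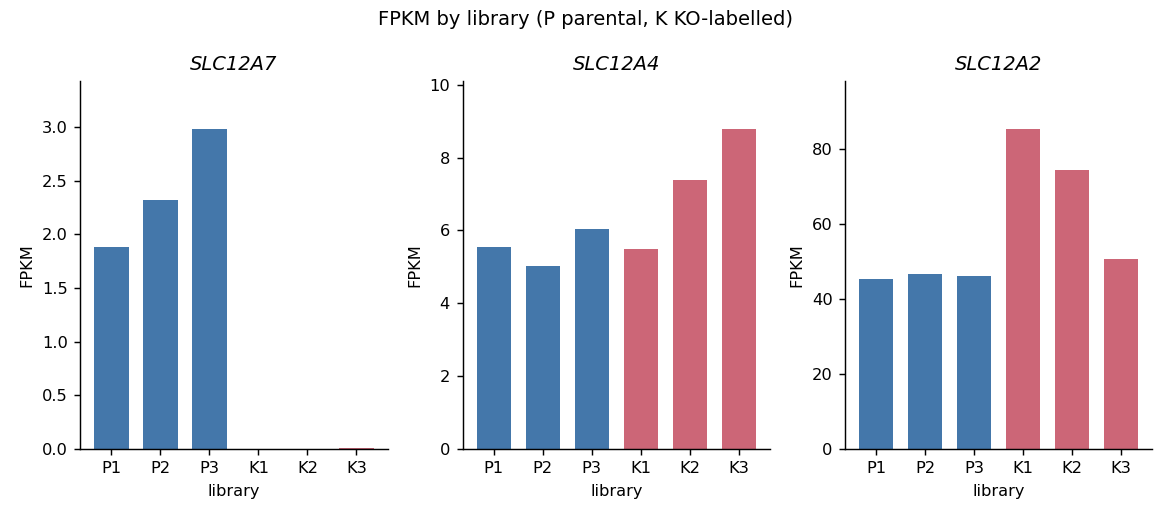
FPKM (y axes from 0, scaled per panel) of SLC12A7, SLC12A4 and SLC12A2 in parental-labelled (P1 to P3, blue) and KO-labelled (K1 to K3, red) libraries. SLC12A7 is at most 0.00582 in K1 to K3, SLC12A4 runs from 5.49 in K1 to 8.78 in K3, and SLC12A2 from 85.3 in K1 to 50.5 in K3.

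The distant members SLC12A8 and SLC12A9 were not called. SLC12A8, described as a nicotinamide mononucleotide transporter in some tissues, had 15.2, 16.8 and 16.9 CPM in the parental-labelled libraries and 12.8, 10.5 and 19.5 CPM in the KO-labelled ones. KO-labelled 1 and 2 lay below and KO-labelled 3 above every parental-labelled library. The log2 fold change was -0.19 (SE 0.21), and without KO-labelled 3 it was called lower, at -0.49. SLC12A9, whose transport activity is poorly defined, had 32.9, 36 and 41.9 CPM against 44.6, 39.0 and 53.3, with overlap and a log2 fold change of 0.31 (SE 0.13), which was 0.18 without KO-labelled 3. In FPKM, 12.3, 13.9 and 15.2 against 15.8, 15.3 and 20.6, the groups did not overlap. It is annotated as overlapping EPHB4 on the opposite strand, and EPHB4, an ephrin receptor, rose from 87.7 ± 5.18 to 111 CPM, or by 0.34 on the log2 scale (SE 0.08, edgeR adjusted p 0.0106), a call lost without parental-labelled 1 or 2. Whether counting used strand is not given in the sources used here, so reads of this pair cannot be told apart.

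None of the 3 member kinases was called with all libraries. WNK1, the broadly expressed chloride-sensing kinase, had 296, 299.6 and 273 CPM against 293, 272 and 274. Its log2 fold change was -0.05 (SE 0.07, 95% interval -0.18 to 0.08). OXSR1 had 76.4, 78.0 and 75.3 CPM against 74.6, 79.0 and 70.4, with -0.04 (SE 0.07, 95% interval -0.17 to 0.10). These intervals reach at most 0.18 from 0 on the log2 scale. They are approximate and too narrow for 3 libraries per group, and they rest on the spread of libraries that may not be independent. Over the alternative fits WNK1 ran from -0.10 to 0.12 and OXSR1 from -0.08 to 0.03. STK39 had 19.8, 18.6 and 17.9 CPM against 14.5, 15.4 and 22.6, a log2 fold change of -0.10 (SE 0.17). KO-labelled 1 and 2 were below the parental-labelled libraries and KO-labelled 3 above them, and without KO-labelled 3 STK39 was called lower, at -0.33. Per length, OXSR1 exceeded STK39 by 2.85, 3.18 and 3.03 times in the parental-labelled libraries and by 3.85, 3.70 and 2.43 times in the KO-labelled ones.

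The spread within the edited populations was uneven among the members. The range over KO-labelled libraries was 0.76, 0.62, 0.89 and 0.64 on the log2 scale for SLC12A2, SLC12A4, SLC12A8 and STK39, and 0.11 and 0.17 for WNK1 and OXSR1. Over 17251 tested genes with a count in every library, the median range was 0.36 over KO-labelled and 0.16 over parental-labelled libraries. SLC12A4, SLC12A8, SLC12A9 and STK39 were highest in KO-labelled 3 and SLC12A2 and OXSR1 lowest there. KO-labelled 3 was the highest of its group for 37.9% and the lowest for 40.1% of those genes.

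By FPKM, the order in the parental-labelled libraries was SLC12A2 (46.1 ± 0.719), WNK1 (44.4 ± 3.47), OXSR1 (14.3 ± 0.0515), SLC12A9 (13.8 ± 1.44), SLC12A8 (5.60 ± 0.634), SLC12A4 (5.53 ± 0.521), STK39 (4.74 ± 0.25), SLC12A7 (2.4 ± 0.555) and SLC12A5 (0.117 ± 0.195). SLC12A2 and WNK1, OXSR1 and SLC12A9, and SLC12A8 and SLC12A4 did not differ beyond their spread. In the KO-labelled libraries SLC12A2 (70.1 ± 17.8) stood further above WNK1 (48.2 ± 4.10), SLC12A9 (17.2 ± 2.90) was above OXSR1 (14.6 ± 0.515) within its spread, SLC12A4 (7.22 ± 1.66) was above SLC12A8 (5.0 ± 1.51) and STK39 (4.55 ± 1.08), and SLC12A7 (0.00211 ± 0.00322) was last, after SLC12A5 (0.392 ± 0.0587).

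Other family genes were SLC12A1, SLC12A3, WNK2, WNK3 and WNK4. Of the 4 tested, 3 rose and 1 was not called, where 21.0% of all tested genes rose. WNK4, the kinase best known for controlling the renal sodium-chloride cotransporter, had 11, 2 and 4 counts in parental-labelled and 121 to 158 in KO-labelled libraries. That was 0.190 ± 0.152 against 4.95 ± 0.882 CPM with no overlap, or 4.62 (SE 0.35) on the log2 scale (edgeR adjusted p 5.4e-05). Without parental-labelled 1, which held 11 of 17 parental-labelled counts, it was 5.47. COA3, which overlaps WNK4 on the opposite strand, was at -0.03 (SE 0.08). WNK4 remained a small part of the family, since WNK1 held 81.0%, 84.3% and 81.2% of the summed WNK FPKM in the parental-labelled and 77.9%, 80.4% and 78.0% in the KO-labelled libraries, and WNK4 1.98% to 2.24% in the latter.

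SLC12A3, that sodium-chloride cotransporter (NCC), also rose from a very low level, with 9, 4 and 10 counts against 30, 21 and 45. The log2 fold change was 2.11 (SE 0.41) and the adjusted p 0.00439 (edgeR). At 0.214 to 0.356 FPKM in the KO-labelled libraries it stayed far below SLC12A2. WNK2 rose from 34.6 ± 1.87 to 43.1 ± 4.31 CPM, or by 0.32 on the log2 scale (SE 0.10, edgeR adjusted p 0.0287), and the call was lost without parental-labelled 1, 2 or 3 or KO-labelled 1. It was also lost on both log2 FPKM scales. The WNK2 groups overlapped in FPKM, at 9.47, 6.13 and 7.93 against 11.8, 8.79 and 9.96. WNK3 had 19.5, 21.2 and 19.4 CPM against 21.3, 16.2 and 13.8 and was not called, at -0.23 (SE 0.15), although without KO-labelled 1 it was called lower, at -0.42. SLC12A1 (NKCC2), the renal carrier, was listed at 0 FPKM in all but parental-labelled 1, where it was at 0.000239.

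**Figure D3:**
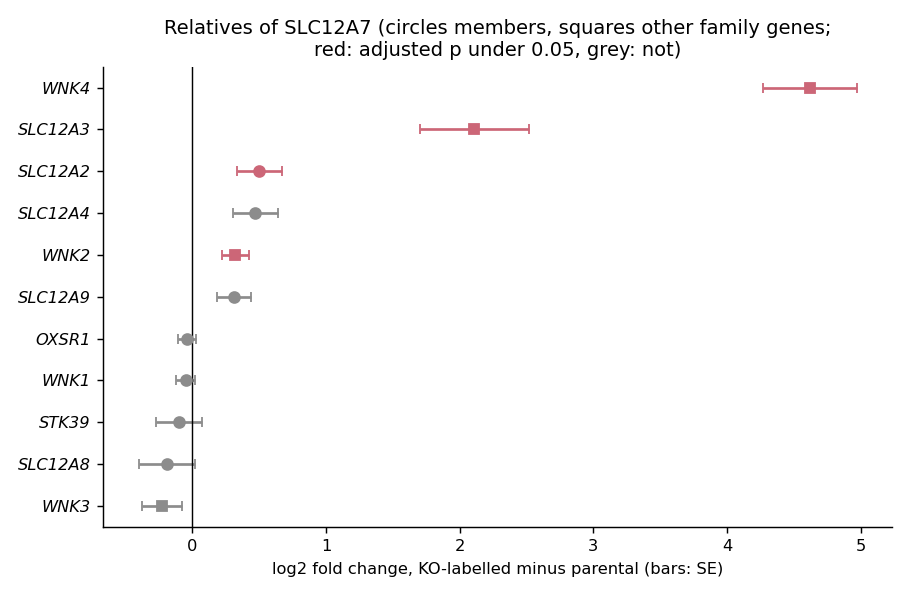
Log2 fold change with SE of the tested relatives of SLC12A7, members as circles and other family genes as squares, in red where the adjusted p was under 0.05 and in grey otherwise. WNK4 (4.62) and SLC12A3 (2.11) lie far to the right at low levels, and WNK1, OXSR1 and STK39 lie within 0.10 of 0.

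Regulators of the WNK pathway were a further list, of 16 tested genes. Of these 3 rose, 1 fell and 12 were not called, with a median of 0.06. Counts of this and the following lists stand beside 21.0% higher and 19.8% lower among all tested genes, with a median of 0.01. SGK1, a kinase induced by osmotic stress and corticosteroids that acts on WNK4, rose from 7.35 ± 0.624 to 27.6 ± 6.92 CPM, or by 1.91 on the log2 scale (SE 0.18, edgeR adjusted p 1.5e-04). KLHL2, an adaptor that targets WNK kinases for degradation, fell from 24.8 ± 1.28 to 15.1 ± 1.0 CPM, a change of -0.72 on the log2 scale (SE 0.09, edgeR adjusted p 6.3e-04). The pseudokinase NRBP1 was at 0.24 (SE 0.06), a call lost without any one parental-labelled library. PPP1CB, a catalytic subunit of the phosphatase that dephosphorylates these carriers and the most abundant gene of the list, was at 0.46 (SE 0.12), a call lost without parental-labelled 1 or 3 or KO-labelled 1 or 2.

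Genes grouped as chloride channels, without separating exchangers or the membrane they act in, moved in both directions. Of 15 tested genes 4 were higher, 7 lower and 4 not called (median -0.21). The calcium-activated channel ANO1, the most abundant of the list by CPM, fell from 292 ± 3.05 to 162 ± 25.4 CPM, a log2 fold change of -0.85 (SE 0.11). Members of the CLC family differed in direction. Log2 fold changes were -1.73 (SE 0.15) for CLCN4, -0.61 (SE 0.06) for CLCN3 and -0.79 (SE 0.10) for CLCN5, whereas CLCN7 was called higher, at 0.53 (SE 0.11, edgeR adjusted p 0.0073), and CLCN6, at -0.04 (SE 0.10), and CLCN2, at -0.21 (SE 0.11), were not called. TTYH3, a tweety family protein, rose from 121 ± 18.1 to 271.5 ± 15.8 CPM. Adjusted p-values of ANO1, CLCN4, CLCN3, CLCN5 and TTYH3 were 9.0e-05 to 6.3e-04 (edgeR).

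Of the sodium pump and pH transporter list, 2 of 11 tested genes reported here rose, 6 fell and 3 were not called. The pump regulator FXYD5 fell from 181 ± 5.84 to 111.5 ± 12.4 CPM, SLC4A11 from 87.8 ± 5.17 to 54.1 ± 2.97 CPM and the sodium-bicarbonate cotransporter SLC4A4 from 7.30 ± 0.202 to 3.61 ± 0.537 CPM. Adjusted p-values of these 3 were 3.0e-04 to 8.9e-04 (edgeR). FXYD3, another pump regulator, fell from 443 ± 18.0 to 247 ± 53.2 CPM (edgeR adjusted p 0.00271).

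Genes of water and osmolyte handling completed the lists. Of 5 tested aquaporins 4 rose and 1 was not called (median 1.14), where 21.0% of all tested genes rose. AQP3, a water and glycerol channel of epithelia, had 28.4, 28.7 and 29.2 CPM in the parental-labelled libraries against 84.9, 101 and 161 in the KO-labelled ones, a log2 fold change of 2.01 (SE 0.22, adjusted p 2.6e-04, edgeR). AQP5 was at 1.14 (SE 0.22), AQP1 at 0.55 (SE 0.18) and AQP7 at 1.17 (SE 0.37). The AQP1 call was lost without parental-labelled 1, 2 or 3 or KO-labelled 1, and the AQP7 call without any library but KO-labelled 3. Both calls were also lost with no filter on low counts, and that of AQP7 with DESeq2 and on both log2 FPKM scales. AQP7 had 9, 7 and 8 counts in parental-labelled against 23, 18 and 11 in KO-labelled libraries, and overlapped in FPKM. Of 6 tested osmotic stress genes 2 rose, 1 fell and 3 were not called (median 0.41). NFAT5, the transcription factor of the hypertonic response, rose from 40.5 ± 4.08 to 62.6 ± 6.63 CPM (adjusted p 0.00263, edgeR), and the taurine transporter SLC6A6 from 35.3 ± 0.867 to 67.8 ± 14.8 CPM (adjusted p 0.00150, edgeR). In FPKM the NFAT5 groups overlapped, at 5.23, 4.28 and 4.06 against 7.56, 5.18 and 7.17. The NFAT5 call was lost on the log2(FPKM + 1) scale. The betaine transporter SLC6A12 fell from 3.88 ± 0.472 to 0.377 ± 0.140 CPM (adjusted p 5.4e-05, edgeR). The amino acid transporter SLC38A2, the most abundant of the list, was at 0.19 (SE 0.12) and not called.

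**Figure D4:**
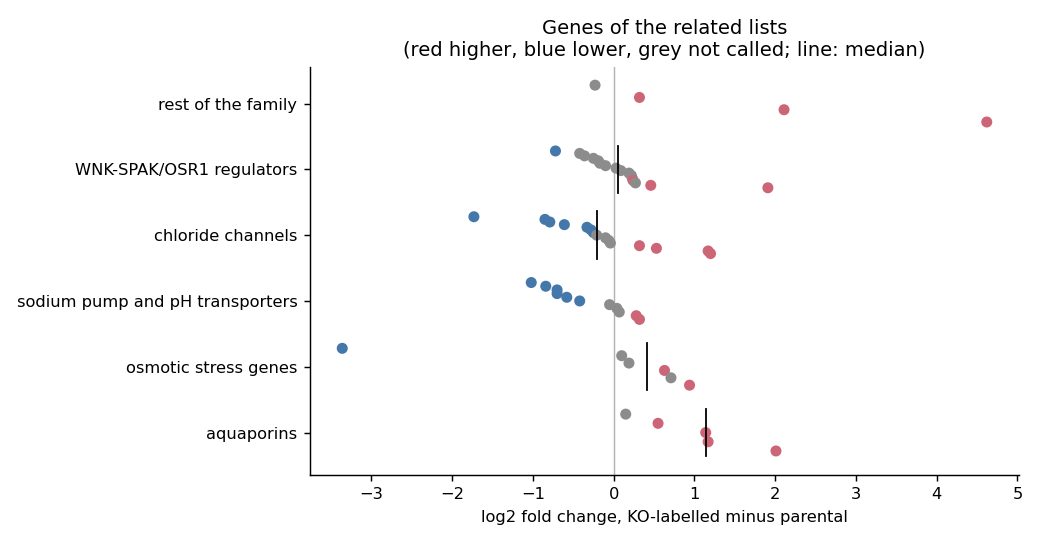
Log2 fold change of each tested gene reported in the 6 related lists, red where called higher, blue where called lower and grey where not called, with the list's median as a line where all of its tested genes are drawn. Aquaporins (median 1.14) lie to the right of 0, and chloride channels (median -0.21) spread to both sides.

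Genes next to SLC12A7 on chromosome 5 did not share its loss. Among the 5 nearest tested genes on either side, 4 of 10 were called higher and 1 lower, with a median log2 fold change of 0.32. On the side of its nearest tested neighbour TRIP13, that gene was at 0.36 (SE 0.11) and BRD9, a chromatin remodeller subunit, at 0.73 (SE 0.08). On the other side CLPTM1L was at 0.28 (SE 0.12), LPCAT1 at 0.40 (SE 0.23) and the complex I subunit NDUFS6 at 0.36 (SE 0.11). CLPTM1L and LPCAT1 were not called, and without KO-labelled 3 they were at 0.12 and 0.04. ZDHHC11B, the only one of the 10 called lower, was at -1.11 (SE 0.24). Its counts were 58, 40 and 40 in parental-labelled against 23, 18 and 20 in KO-labelled libraries. That call was lost on the log2(FPKM + 1) and log2(FPKM + 0.1) scales, at -0.23 and -0.45. The TRIP13 call was lost without parental-labelled 1, 2 or 3 or KO-labelled 2, and that of NDUFS6 without parental-labelled 1 or 2 or KO-labelled 2. Over all 9 members, 42 of 89 distinct neighbours (47.2%) were called, beside 40.8% of all tested genes.

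**Figure D5:**
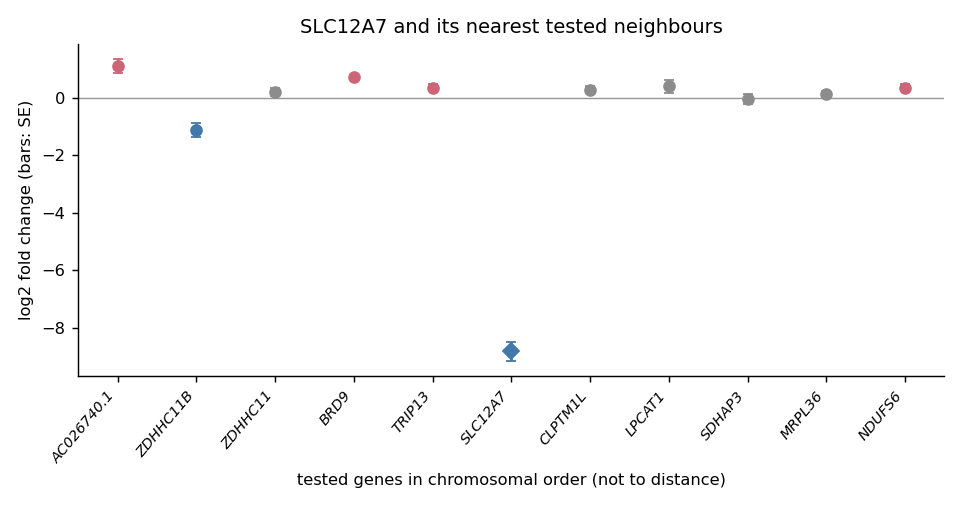
Log2 fold change with SE of SLC12A7 (diamond) and the 5 nearest tested genes on either side in chromosomal order, not drawn to distance, coloured by call. SLC12A7 lies at -8.82 and its neighbours between -1.11 and 1.11.

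Profiles over the 6 libraries were compared with that of SLC12A7 by root mean square distance of mean-centred log2 CPM. Tested genes of low average level and names of uncharacterised or antisense loci were left out. The nearest of the remaining genes included MAP7D2 (distance 0.71), EN1 (0.82), SCGB2A2 (0.83) and ANPEP (0.96). MAP7D2 had 534, 433 and 523 counts in the parental-labelled libraries against 0, 4 and 5, and EN1 had 247, 207 and 297 against 4, 3 and 3. All were far lower in the KO-labelled libraries, which is what this measure picks.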

How the data were processed

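The authors deposited raw counts per gene symbol and FPKM values, 1 column per sample. Tools listed, per the submitters' processing notes, were Cufflinks 2.0.2, SAMtools 0.1.19 and STAR 2.4.0f1, on hg19. How reads were counted, on which annotation and strand, is not stated there. Counts were fitted over the whole table with edgeR 4.0.16 in R 4.3.3 (filterByExpr with minimum count 10 and total 15, TMM, quasi-likelihood F test, no covariate). The fit was tried on simulated data with independent libraries and the same dispersion in both groups. That trial did not cover the wider KO-labelled spread or libraries that are not independent. CPM used TMM library sizes, and 1 count was worth 0.0316 to 0.0390 CPM. SE is the log2 fold change over the square root of F, and 95% intervals are 1.96 SE on either side, which is narrow for 3 libraries per group. Alternatives used DESeq2 1.42.0, limma 3.58.1 on log2(FPKM + 1) or log2(FPKM + 0.1), other scalings and filters, and each library left out. Gene order and overlaps came from GENCODE on GRCh38, found for 81.9% of tested genes. Named genes were the members, other SLC12 and WNK genes, up to 4 called genes with the smallest p and the most abundant gene of each list, neighbours of SLC12A7 (1 uncharacterised locus and 3 others left unnamed) and genes with its profile. The nearest of these and some genes of the pump and family lists are not reported here, so counts for those lists are partial. Members and lists were chosen with earlier results of these data known.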

Additional observations from a re-analysis of the deposited data

How the results depend on the processing

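The number of members called, 2 with all libraries including SLC12A7, whose call the choice of genes fixed, was 4 with DESeq2 (SLC12A4 and SLC12A5 in addition) and between 1 and 5 with a library left out. It was 1 without parental-labelled 1, 2 or 3, where 4922 of 17771, 4879 of 17897 and 5263 of 17768 tested genes were called. It was 5 without KO-labelled 3, where 9367 of 17803 tested genes were called. With all libraries 7105 of 17420 genes were called, and with DESeq2 7069 of 31120. Scaling by upper quartile or library totals gave 3 members (SLC12A4 in addition), beside 7126 and 7133 of 17420 genes. No filter on low counts also gave 3, beside 6854 of 31120 genes. Of 14 alternatives, SLC12A2 kept its call in 9 and its direction in all 14. The size for SLC12A7 was -1.75 on the log2(FPKM + 1) scale and -4.59 on the log2(FPKM + 0.1) scale, where the pseudocount bounds low values. WNK4 was likewise at 1.13 on the first of these. WNK2 kept its call in 7 of 14. All genes called numbered 4879 to 9367 over the alternatives, and those of the related lists 22 to 37 beside 33. Among neighbours, 43.1% were called with 10 genes on either side, beside 47.2%. No paired analysis was possible because the labels give the groups no shared replicate numbers. Low counts limit SLC12A5, SLC12A3, AQP7 and the KO-labelled level of SLC12A7.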
